A study of Mus musculus with 8 samples.

Results

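The aryl hydrocarbon receptor battery was followed here as 9 genes: the receptor gene Ahr, the partner gene Arnt, the repressor genes Ahrr and Tiparp, and the classic target genes Cyp1a1, Cyp1a2, Cyp1b1, Nqo1 and Aldh3a1. They were chosen by name, and their Ensembl gene IDs were found with the GENCODE M21 annotation among the 46078 gene IDs of the count tables. All 9 were present. The set was proposed with counts of these same libraries known, the level of Cyp1a1 in particular, so the values of the 9 genes are given as a description without a p-value.

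Poly-A RNA was sequenced from 4 groups of 2 libraries, all from XY cells of C57BL/6 strain. The tcESCs are embryonic stem cells with the transgene tesco-cfp, in which the testis enhancer core of Sox9 drives a cyan fluorescent protein. The tc;Sf1ESCs (genotype XY;tesco-cfp;Sf1) are 1 clone of those cells, selected with G418, that expresses a mouse Sf1 (Nr5a1) transgene, and both ESC groups were grown in N2B27 medium with LIF and the inhibitors PD0325901 and CHIR99021. The SCLCs (Sertoli cell-like cells) came from tc;Sf1ESCs after 12 days of culture, first with CHIR99021 and the retinoic acid receptor agonist TTNPB and then with CHIR99021, BMP7 and FGF9, and were sorted for cyan fluorescence. The tod-PGCLCs (genotype XY;Prdm1-gfp) are primordial germ cell-like cells that were sorted after 6 days from testicular organoids, in which epiblast-like cells of a Prdm1-gfp ESC line were cultured with tc;Sf1ESC-derived testicular cells in medium with CHIR99021. Their own parent ESCs were not analysed here, so a comparison of tod-PGCLCs with tcESCs also compares 2 ESC lines. In the comparisons that involve SCLCs or tod-PGCLCs, cell type, medium and sorting change together and cannot be told apart. In these bulk libraries, fewer cells of a type and less RNA per cell cannot be told apart either.

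The aryl hydrocarbon receptor is a transcription factor of the bHLH-PAS family that waits in the cytoplasm in a complex with HSP90 and the co-chaperone p23 (Ptges3). Dioxins, polycyclic aromatic hydrocarbons and products of tryptophan breakdown bind it, after which it enters the nucleus, pairs with ARNT and binds xenobiotic response elements with the core GCGTG. Its targets include the CYP1 enzymes, which oxidise the ligands, and its own repressors AHRR, which competes for ARNT, and TIPARP, which attaches ADP-ribose to the receptor. In the gonads the receptor is best known as the mediator of dioxin toxicity to the developing reproductive tract.

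A RefSeq promoter sequence was found for 7 of the 9 genes, taken as the 250 bases before the RefSeq start on GRCm38.p6. The core GCGTG, searched on both strands, occurred in 5 of the 7 (Arnt, Ahrr, Cyp1a1, Cyp1b1 and Tiparp) and in 28.2% of all 32851 such windows. The same letters are also a form of the hypoxia response core, and a match in a window this short is a description of the letters only. The longer form TNGCGTG was matched in Ahrr alone among the members and in 4.1% of all windows. The antioxidant response form TGACNNNGC was matched in Arnt alone, against 10.2% of all windows. Cyp1a1, Cyp1b1, Ahrr and, on few counts, Cyp1a2 were the 4 members more than 2-fold higher in the tc;Sf1ESC clone. The windows of the first 3 are printed, while that of Cyp1a2 held no core and is not printed because it overlaps an annotated exon of the gene. The printed windows lie at chr9:57697363-57697612 on the plus strand, chr17:79715062-79715311 on the minus strand and chr13:74292332-74292581 on the minus strand. The Cyp1a1 window is intronic to a longer annotated transcript of the same gene and ends at the first base of its main transcript. The printed windows of Cyp1b1 and Ahrr lie outside the annotated spans of their genes. Capitals mark the core, as GCGTG or as its complement CACGC.
Cyp1a1: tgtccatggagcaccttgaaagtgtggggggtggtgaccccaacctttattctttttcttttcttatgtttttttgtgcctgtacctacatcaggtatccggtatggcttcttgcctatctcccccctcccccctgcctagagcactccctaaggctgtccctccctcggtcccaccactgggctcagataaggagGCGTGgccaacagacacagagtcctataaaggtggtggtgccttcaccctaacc
Cyp1b1: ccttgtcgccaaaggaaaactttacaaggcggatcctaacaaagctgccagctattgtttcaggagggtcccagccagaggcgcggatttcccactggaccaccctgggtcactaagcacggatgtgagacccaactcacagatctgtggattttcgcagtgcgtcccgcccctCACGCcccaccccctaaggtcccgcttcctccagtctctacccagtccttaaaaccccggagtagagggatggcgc
Ahrr: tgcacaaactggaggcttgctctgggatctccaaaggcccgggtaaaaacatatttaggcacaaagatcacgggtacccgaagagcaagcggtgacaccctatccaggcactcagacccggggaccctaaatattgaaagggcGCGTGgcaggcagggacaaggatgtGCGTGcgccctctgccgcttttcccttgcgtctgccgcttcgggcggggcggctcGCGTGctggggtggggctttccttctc
Ahrr thus carried 3 cores at 107, 82 and 27 bases before the start, Cyp1a1 carried 1 at 54 bases and Cyp1b1 carried 1 at 76 bases, on the other strand.

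The libraries held 25411033 to 30680191 counts on genes, so 3 counts equal 0.0978 to 0.118 CPM (counts per 1000000 counts on genes of that library), a limit that covers counting error only. Replicates differed by more than sampling noise, and chi-square divided by its degrees of freedom was 1.44 in tc;Sf1ESCs, 4.06 in tcESCs, 9.92 in tod-PGCLCs and 30.9 in SCLCs. Nr5a1 was counted 1 and 0 times in tcESCs, 52 and 30 times in tc;Sf1ESCs, 341 and 535 times in SCLCs, and 6 and 5 times in tod-PGCLCs. The 6 Sertoli cell markers summed to 439 and 456 CPM in SCLCs and to 3.35 to 10.3 CPM in the ESCs, most of it Gata4. The list includes Nr5a1, which the clone also carried as a transgene. Sox9, whose enhancer drove the sorted reporter, was counted 206 and 130 times in SCLCs and 0 to 8 times in the ESCs. Wt1 was at 2.26 and 0.791 CPM in SCLCs and 0.347 to 0.619 CPM in the ESCs. Of the same 6 markers, Amh (10 and 22 counts) and Dhh (5 and 1) were no higher in SCLCs than in the ESCs. Markers of 2 other cell types were also high in SCLCs: 6 visceral endoderm markers summed to 386 and 587 CPM (2.89 to 4.4 in the ESCs) and 6 trophectoderm markers to 728 and 921 CPM (13 to 66.8 in the ESCs). Most of the latter sum was the simple keratins Krt8 (339 and 422 CPM) and Krt18 (374 and 466 CPM), which other epithelia share, while Cdx2, Hand1 and Gata3 were at 2.91 to 17.4 CPM and Elf5 had 5 and 13 counts. The 6 hepatocyte markers summed to 68.9 and 97 CPM in SCLCs, nearly all of it Hnf4a, and Alb had 1 count in each library and Cyp3a11 none. The 6 steroidogenic markers summed to 7.17 to 17.8 CPM, nearly all of it Star in the ESCs, which was at 7.2 and 7.37 CPM in tcESCs and 17.4 and 16.1 CPM in tc;Sf1ESCs, and Cyp17a1 was counted 35 and 56 times in SCLCs and at most 1 time in an ESC library. The 6 primordial germ cell markers summed to 747 and 735 CPM in tod-PGCLCs and to 136 to 304 CPM elsewhere. Prdm1, whose reporter was used in the sort (179 and 194 CPM), Tfap2c (185 and 221) and Dppa3 (154 and 181) carried the difference, while Dazl (194 and 105 CPM) overlapped the tcESCs and Nanos3 (2.18 and 4.1 CPM) was below the tc;Sf1ESCs. The 5 ESC markers summed to 2826 to 3169 CPM in the ESCs, 2473 and 2507 CPM in tod-PGCLCs and 453 and 243 CPM in SCLCs. In tod-PGCLCs the trophectoderm list summed to 146 and 177 CPM, again mostly the keratins, the visceral endoderm list to 17.1 and 24.7 CPM and the Sertoli list to 19.2 and 23.3 CPM, each above all ESC libraries, with Wt1 at 12.1 and 11 CPM. The 2 ESC groups differed as well: the trophectoderm list summed to 51.6 and 66.8 CPM in tcESCs and 13.9 and 13 CPM in tc;Sf1ESCs, mostly through the keratins, and the germ cell list to 279 and 304 CPM in tcESCs and 188 in both tc;Sf1ESC libraries, with Dazl and Ddx4 lower and Prdm1 and Nanos3 higher in the clone. The part of these other markers in the results of any comparison was not tested.

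Ahr, on chromosome 12 (35497974 to 35535038, minus strand, GRCm38), encodes the receptor. It was measured at 11.5 and 10.9 CPM in the tcESC libraries, 19 and 18.4 CPM in tc;Sf1ESCs, 6.57 and 7.46 CPM in SCLCs and 25 and 28.9 CPM in tod-PGCLCs. No groups overlapped, and the order was tod-PGCLCs, tc;Sf1ESCs, tcESCs and SCLCs. The mean of 18.7 ± 0.439 CPM in tc;Sf1ESCs (SD, n = 2, as for the means below) was 1.67-fold higher than the 11.2 ± 0.377 CPM of tcESCs. The mean in tod-PGCLCs, 26.9 ± 2.75 CPM, was 2.41-fold higher than in tcESCs and 3.84-fold higher than the 7.01 ± 0.632 CPM of SCLCs. Exons of Ahr share 127 bases with Gm48236 on the other strand, and whether the counting used strand is not given in the sources used here.

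Arnt, on chromosome 3 (95434388 to 95497240, plus strand), encodes the partner that the receptor shares with the hypoxia factors. Its level hardly differed: 117 and 112 CPM in tcESCs, 121 and 117 CPM in tc;Sf1ESCs, 126 and 124 CPM in SCLCs, and 130 and 121 CPM in tod-PGCLCs. The log2 fold change of tc;Sf1ESCs over tcESCs was 0.07 (SE 0.0602) with a 95% interval of -0.07 to 0.21, in which a 2-fold difference does not lie. The highest and lowest group means, 126 ± 6.4 and 115 ± 3.7 CPM, were 1.1-fold apart.

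Ahrr, on chromosome 13 (74211118 to 74292331, minus strand), encodes the repressor that takes the receptor's place beside ARNT. It was measured at 5.47 and 6.19 CPM in tcESCs, 19.6 and 20 CPM in tc;Sf1ESCs, 0.943 and 0.791 CPM in SCLCs, and 1.56 and 1.62 CPM in tod-PGCLCs. No groups overlapped. The tc;Sf1ESC mean was 3.4-fold higher than the tcESC mean, and the SCLC mean was 22.8-fold lower than that of tc;Sf1ESCs and 6.73-fold lower than that of tcESCs. The SCLC value rests on 25 and 23 counts and the tod-PGCLC value on 43 and 43.

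Tiparp, on chromosome 3 (65528410 to 65555518, plus strand), encodes the ADP-ribosyltransferase that limits the receptor. It stood at 102 and 104 CPM in tcESCs, 106 and 102 CPM in tc;Sf1ESCs, 93.5 and 77.4 CPM in SCLCs, and 74.9 and 82.5 CPM in tod-PGCLCs. The 2 ESC groups overlapped, and so did SCLCs and tod-PGCLCs. The tod-PGCLC mean was 1.31-fold lower than the tcESC mean, and the log2 fold change between the ESC groups was 0.03 (SE 0.0924, 95% interval -0.19 to 0.24). The median of the 833 tested genes of chromosome 3, which holds both Arnt and Tiparp, was 0.20 on the same log2 scale. Exons of Tiparp share 223 bases with 4931440P22Rik on the other strand.

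Cyp1a1, on chromosome 9 (57687928 to 57703824, plus strand), encodes the monooxygenase whose induction is the usual readout of receptor activity. It had 845 and 1054 counts in tcESCs, 2174 and 2465 in tc;Sf1ESCs, 1 and 3 in SCLCs, and 19 and 69 in tod-PGCLCs. In CPM these were 33.3 and 34.4, 83.9 and 89.1, 0.0377 and 0.103, and 0.69 and 2.6. The 4 groups did not overlap, and the SCLC libraries were at or below the 3-count limit. The tc;Sf1ESC mean of 86.5 ± 3.69 CPM was 2.56-fold higher than the tcESC mean of 33.8 ± 0.779 CPM. The pooled counts gave a level in tc;Sf1ESCs 1203-fold above SCLCs, with an exact 95% counting interval of 469 to 4417. The same ratio was 471 (183 to 1729) for tcESCs over SCLCs and 22.6 (8.52 to 84.8) for tod-PGCLCs over SCLCs. These intervals hold counting error only and rest on 4 counts in SCLCs. Without SCLC replicate 2 the fitted log2 fold change of SCLCs moved from -10.09 to -10.96 against tc;Sf1ESCs and from -8.73 to -9.59 against tcESCs. Against tod-PGCLCs it moved from -4.29 to -5.14 without SCLC replicate 2, to -4.96 without tod-PGCLC replicate 1 and to -3.06 without tod-PGCLC replicate 2. The tod-PGCLC mean of 1.64 ± 1.35 CPM was 20.6-fold lower than that of tcESCs, and its replicates stood at 0.69 and 2.6 CPM, the widest ratio within a group for this gene. Without tod-PGCLC replicate 1 the log2 fold change against tcESCs moved from -4.44 to -3.77, and without replicate 2 to -5.67.

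Cyp1a2, which encodes the liver enzyme of the pair, lies on chromosome 9 (57676937 to 57683703, minus strand) next to Cyp1a1 in the opposite orientation, with 4224 bases between the annotated spans. It was the 1 member below the filter of a mean count above 10. It was counted 2 and 2 times in tcESCs, 11 and 12 times in tc;Sf1ESCs, 0 and 0 times in SCLCs, and 0 and 2 times in tod-PGCLCs. The pooled level in tc;Sf1ESCs was 6.02-fold that of tcESCs (exact 95% counting interval 2.06 to 23.9). With 3 counts put in place of the 0 over the SCLC group, the level in tc;Sf1ESCs was 7.95-fold higher. That value leaves out the counting error of tc;Sf1ESCs. The ratio of tcESCs to tod-PGCLCs, 1.93 (0.276 to 21.3), held 1 within its interval.

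Cyp1b1, on chromosome 17 (79701537 to 79715061, minus strand), encodes the CYP1 enzyme most used outside the liver. It was measured at 3.97 and 4.82 CPM in tcESCs, 15.9 and 16.8 CPM in tc;Sf1ESCs, 8.79 and 4.54 CPM in SCLCs, and 15.3 and 25.9 CPM in tod-PGCLCs. SCLCs overlapped tcESCs, tod-PGCLCs overlapped tc;Sf1ESCs, and both of the latter were above both of the former. The mean in tc;Sf1ESCs was 3.71-fold higher and that in tod-PGCLCs 4.68-fold higher than in tcESCs. Cyp1b1 thus differed from Cyp1a1 in the order of the groups: tod-PGCLCs had the highest mean of Cyp1b1, 20.6 ± 7.51 CPM, and the second lowest mean of Cyp1a1. The SCLC replicates decided whether 2 of its fold changes passed 2-fold. Without SCLC replicate 2 the log2 fold change of SCLCs against tc;Sf1ESCs moved from -1.25 to -0.85 and was no longer past 2-fold. That against tcESCs moved from 0.65 to 1.05, just past 2-fold. With 1 SCLC library left, these fits hold no spread within SCLCs. Without tcESC replicate 1, the difference between the ESC groups was 1.77 and was not called.

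Nqo1, on chromosome 8 (107388225 to 107403206, minus strand), encodes a quinone reductase that both the receptor and NRF2 are known to induce. It was the most abundant member per length in the ESCs and was measured at 187 and 197 CPM in tcESCs, 157 and 158 CPM in tc;Sf1ESCs, 5.09 and 5.16 CPM in SCLCs, and 29 and 23.7 CPM in tod-PGCLCs. No groups overlapped. The SCLC mean of 5.13 ± 0.0438 CPM was 37.4-fold lower than the tcESC mean and 30.8-fold lower than the tc;Sf1ESC mean, and the tod-PGCLC mean was 7.29-fold lower than the tcESC mean. Between the ESC groups Nqo1 was 1.22-fold lower in tc;Sf1ESCs (log2 fold change -0.27, SE 0.0581), while the median log2 fold change of the 864 tested genes of chromosome 8 was 0.47 higher in that clone. The part of this shift in the value of Nqo1 was not tested.

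Aldh3a1, on chromosome 11 (61207537 to 61218421, plus strand), encodes an aldehyde dehydrogenase of the classic battery. It was low in every library: 1.18 and 1.14 CPM in tcESCs, 1.04 and 1.16 CPM in tc;Sf1ESCs, 0.226 and 0.103 CPM in SCLCs (6 and 3 counts), and 3.27 and 1.88 CPM in tod-PGCLCs. The ESC groups overlapped, with SCLCs below and tod-PGCLCs above. The tod-PGCLC mean was 2.22-fold higher than the tcESC mean, and the median log2 fold change of the tested genes of chromosome 11 in that comparison was 0.52, whose part in the value was not tested. The difference was not called without either tcESC library (log2 fold change 1.06 and 1.003) or without tod-PGCLC replicate 1 (0.63).

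**Figure D1:**
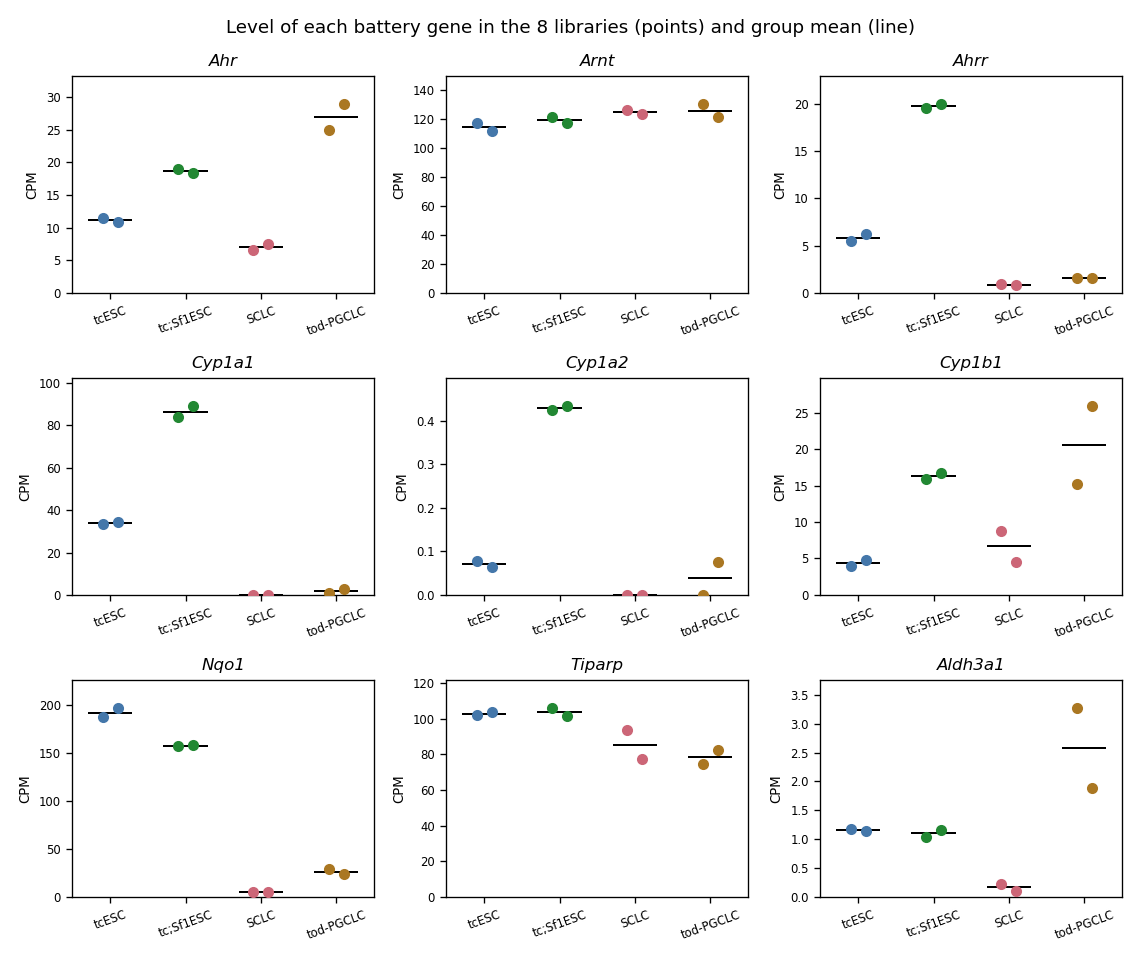
Level of each battery gene on a linear CPM axis from 0, with 1 point per library, 2 libraries per group, and a line at the group mean. Cyp1a1, Ahrr and Cyp1a2 peak in tc;Sf1ESCs, Ahr, Cyp1b1 and Aldh3a1 have their highest means in tod-PGCLCs, and Arnt stays between 112 and 130 CPM.

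Levels of different genes were compared only after division by exon length, as CPM per kilobase. In tcESCs the order was Nqo1 (124 CPM per kilobase), Tiparp (23.6), Arnt (14.3), Cyp1a1 (12.1), Ahr (1.81), Cyp1b1 (0.753), Ahrr (0.618), Aldh3a1 (0.598) and Cyp1a2 (0.0357), and of these neighbours only Ahrr and Aldh3a1 overlapped between libraries. In tc;Sf1ESCs Cyp1a1 stood second at 31 CPM per kilobase, behind Nqo1 at 102, and no neighbours overlapped. In SCLCs Tiparp led at 19.6 CPM per kilobase, followed by Arnt (15.6), Nqo1 (3.3), Ahr (1.14) and Cyp1b1 (1.14), and Cyp1a1 was at 0.0253. There Ahr overlapped Cyp1b1, and Ahrr overlapped Aldh3a1. In tod-PGCLCs Tiparp (18.1), Nqo1 (17) and Arnt (15.7) were next to each other, with Nqo1 overlapping both. Ahr overlapped Cyp1b1 in tod-PGCLCs as well, and Cyp1a1 was at 0.59 CPM per kilobase. The genes of the receptor and of its partner were therefore detected in every group, including SCLCs, where Cyp1a1 was at the detection limit.

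Each comparison was also tested with the quasi-likelihood method of edgeR over all genes with a mean count above 10, among them 8 members. A gene was called where its fold change passed 2 and its Benjamini-Hochberg adjusted p was under 0.05. The comparisons share libraries, so their counts are not independent of each other, and because the set was proposed from these counts nothing is read from the number of members called. Between tc;Sf1ESCs and tcESCs, which asks what the Sf1 clone changes before differentiation, 3 of the 8 members were called higher and none lower. Of all 16481 genes tested 11.7% were called, 6.04% higher and 5.62% lower. The 3 were Cyp1b1 (log2 fold change 1.90, SE 0.293), Ahrr (1.78, SE 0.142) and Cyp1a1 (1.37, SE 0.0877), and Ahr was at 0.75 (SE 0.122). Cyp1a2 was called as well when the filter was relaxed to every gene with at least 1 count, which made 4 members.

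Between SCLCs and tc;Sf1ESCs, the parent cells, 6 of 8 members were called lower and none higher, where 42.2% of all genes were called, 24.1% higher and 18.1% lower. Beside Cyp1a1 these were Nqo1 (log2 fold change -4.89, SE 0.0748), Ahrr (-4.46, SE 0.177), Aldh3a1 (-2.68, SE 0.424), Ahr (-1.36, SE 0.126) and Cyp1b1 (-1.25, SE 0.283). Between SCLCs and tcESCs 4 were called lower and none higher, against 42.7% of all genes, 24.3% higher and 18.3% lower. The 4 were Cyp1a1, Nqo1 (-5.16), Aldh3a1 (-2.74) and Ahrr (-2.69), while Ahr was at -0.61 (SE 0.127) and Cyp1b1 at 0.65 (SE 0.299). Without SCLC replicate 1 the log2 fold change of Aldh3a1 was -3.30 against tc;Sf1ESCs and -3.36 against tcESCs.

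Between tod-PGCLCs and tcESCs 3 of 8 members were called higher and 3 lower, where 29.4% of 16707 genes were called, 18.1% higher and 11.2% lower. Cyp1b1 (log2 fold change 2.15, SE 0.332), Ahr (1.2, SE 0.124) and Aldh3a1 (1.08, SE 0.339) were higher. Cyp1a1 (-4.44, SE 0.341), Nqo1 (-2.94, SE 0.0965) and Ahrr (-1.95, SE 0.175) were lower. Between SCLCs and tod-PGCLCs 5 members were called lower in SCLCs and none higher, against 38.0% of all genes, 19.5% higher and 18.5% lower. These were Cyp1a1, Aldh3a1 (-3.82, SE 0.457), Nqo1 (-2.23, SE 0.112), Ahr (-1.81, SE 0.128) and Cyp1b1 (-1.50, SE 0.32), and Ahrr was at -0.74 (SE 0.214). Without SCLC replicate 1 the value of Aldh3a1 was -4.45. The median log2 fold change of the 8 members was 0.41, -2.02, -1.65, -0.20 and -1.65 in the 5 comparisons in this order, and that of all genes tested was between -0.01 and 0.05.

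**Figure D2:**
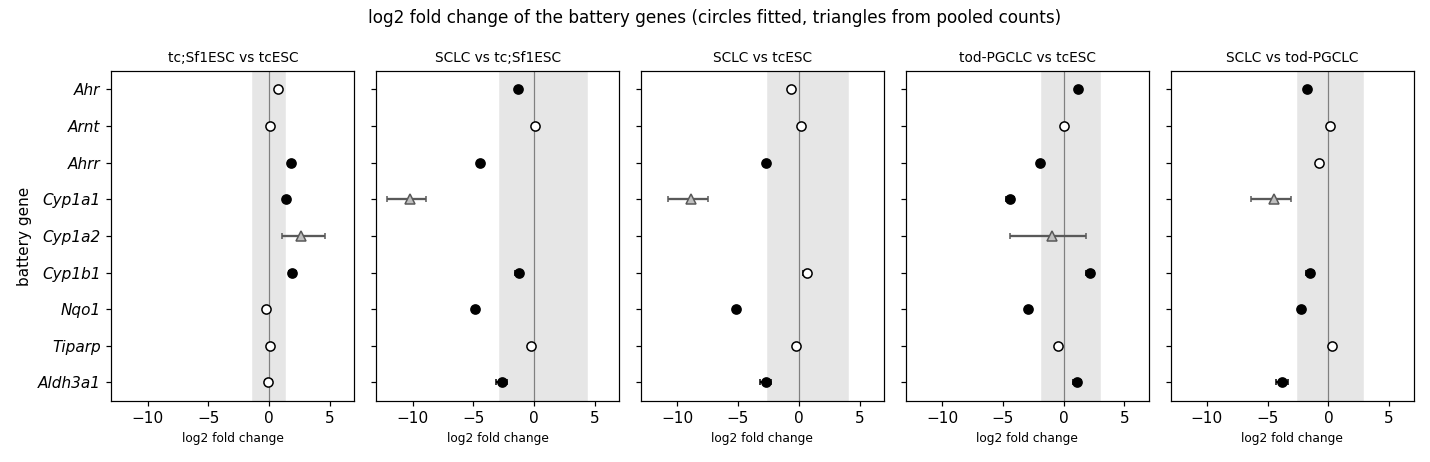
Horizontal axis, log2 fold change of the first group over the second in each of 5 comparisons; circles are fitted values with SE, filled where called, triangles are ratios of pooled counts with their 95% counting interval, and the grey band spans the 5th to 95th percentile of all genes tested. Arnt and Tiparp lie near 0 throughout, and Cyp1a1 and Nqo1 lie left of the band in every panel with SCLCs except Nqo1 against tod-PGCLCs.

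Genes outside the set were read from 4 lists of the same pathway, drawn up with earlier results of these data known. Their adjusted p-values come from the same edgeR fits, with the Benjamini-Hochberg method applied to every gene tested. They hold 44 genes that are no members, of which 32 passed the filter. Of these 32 genes, 5 were called between the ESC groups (15.6%), 16 between SCLCs and tc;Sf1ESCs (50%), 18 between SCLCs and tcESCs (56.2%), 8 between tod-PGCLCs and tcESCs (25%) and 19 between SCLCs and tod-PGCLCs (59.4%). The shares of all genes called in these comparisons were 11.7%, 42.2%, 42.7%, 29.4% and 38.0%, and nothing particular to the lists is read from the difference.

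Tryptophan breakdown supplies ligands of the receptor such as kynurenine, and 4 of the 8 genes of that list passed the filter. In tc;Sf1ESCs 2 rose and 1 fell against tcESCs, where 6.04% of all genes were called higher and 5.62% lower. Ido2, which encodes an indoleamine dioxygenase, was counted 90 and 141 times in tcESCs, 1723 and 1723 times in tc;Sf1ESCs, 46 and 35 times in SCLCs, and 60 and 28 times in tod-PGCLCs. The tc;Sf1ESC libraries stood above all others, with a log2 fold change of 3.99 over tcESCs (adjusted p = 3.4e-05) and of -5.41 for SCLCs over tc;Sf1ESCs (adjusted p = 6.9e-07). Ido2 was also lower in SCLCs (-1.42, adjusted p = 0.000632) and tod-PGCLCs (-1.40, adjusted p = 0.00296) than in tcESCs, and the tod-PGCLC value was -0.97, within 2-fold, without tod-PGCLC replicate 2 and -2.02 without replicate 1. Il4i1, which encodes an amino acid oxidase, fell in tc;Sf1ESCs against tcESCs (-1.97, adjusted p = 0.00608) and was higher in SCLCs than in tc;Sf1ESCs (2.49, adjusted p = 0.000473). The fall was not called without tcESC replicate 1 (adjusted p = 0.0536) or tc;Sf1ESC replicate 1 (adjusted p = 0.0585). Ido1, the better known dioxygenase, was higher in SCLCs than in tcESCs (2.49, adjusted p = 0.000373) at a level of 1.64 ± 0.0316 CPM. Its increase in tc;Sf1ESCs (1.23, adjusted p = 0.0391) was lost when any 1 of the 4 libraries was left out, and DESeq2 did not call it (adjusted p = 0.135). Ido1 and Ido2 both lie on chromosome 8, whose tested genes had a median log2 fold change of 0.47 in tc;Sf1ESCs against tcESCs, and the part of this shift in their values was not tested. Against tod-PGCLCs, SCLCs had more Ido1 (2.99) and more Afmid (1.72, adjusted p = 0.000562), which encodes the formamidase of the next step.

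Of the 12 further genes described as targets of the receptor, 6 passed the filter. None was called between the ESC groups by edgeR, where 11.7% of all genes were called, or by DESeq2. Of the 6, 3 had an unadjusted p under 0.05 in edgeR, 2 higher and 1 lower in tc;Sf1ESCs. In SCLCs, 3 genes were called higher than in tc;Sf1ESCs and also than in tcESCs: Nedd9, Cyp2s1 and Xdh. The other 3 were not called. Of all genes, 24.1% were called higher than in tc;Sf1ESCs and 24.3% higher than in tcESCs. Nedd9, a scaffold protein of cell adhesion, was at 61.9 and 70.9 CPM in SCLCs and at 1.16 CPM in both tc;Sf1ESC libraries, a log2 fold change of 5.89 (adjusted p = 1.67e-07). Cyp2s1, a cytochrome P450 of epithelia, was at 86.7 and 127 CPM in SCLCs and at 18.8 and 20.2 CPM in tc;Sf1ESCs (2.50, adjusted p = 1.81e-05). Xdh, the xanthine dehydrogenase gene, had 18 and 70 counts in SCLCs and 0 and 2 in tc;Sf1ESCs, a ratio of pooled levels of 42.4 (exact 95% counting interval 11.4 to 356, adjusted p = 0.00352). Its fitted log2 fold change, 5.27, ran from 4.35 without tc;Sf1ESC replicate 1 to 8.45 without tc;Sf1ESC replicate 2, and was 5.92 without SCLC replicate 1. Xdh passed the filter only through its SCLC counts, so it could be called only as higher there. The visceral endoderm and trophectoderm markers were high in the same SCLC libraries, and their part in these 3 genes was not tested. In tod-PGCLCs Cyp2s1 (-1.61, adjusted p = 0.00131, and -2.21 without tod-PGCLC replicate 1) and Ugdh (-1.59, adjusted p = 1.87e-06), which makes the sugar donor for glucuronidation, were lower than in tcESCs. Nedd9 was higher there (1.61, adjusted p = 0.00654), but not past 2-fold without tod-PGCLC replicate 2 (0.89) and not called without tcESC replicate 1.

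All 12 genes of the NRF2 and KEAP1 list, the antioxidant battery that shares Nqo1, passed the filter. Between the ESC groups 1 of the 12 was called, where 11.7% of all genes were called. That gene, Gstm1, stood at 38.4 ± 0.207 CPM in tcESCs and 111 ± 0.255 CPM in tc;Sf1ESCs (1.55, adjusted p = 0.000102). It belongs to a multigene family whose near-identical members can share reads. In SCLCs 1 rose and 5 fell against tc;Sf1ESCs, where 24.1% of all genes were called higher and 18.1% lower. Against tcESCs 1 rose and 7 fell, where 24.3% were called higher and 18.3% lower. Gsr, the glutathione reductase gene, was at 82.4 and 97.8 CPM in SCLCs and 447 and 454 CPM in tc;Sf1ESCs (-2.27, adjusted p = 1.14e-06). Hmox1, the heme oxygenase gene, was the 1 that rose, from 65.7 and 67.1 CPM in tc;Sf1ESCs to 181 and 242 CPM in SCLCs (1.72, adjusted p = 2.19e-05). Nfe2l2, which encodes NRF2 itself, was at -0.79 in SCLCs against tc;Sf1ESCs (adjusted p = 1.64e-05), within 2-fold. It was named for its role, after its values were seen. In tod-PGCLCs Slc7a11, the cystine transporter gene (1.57, adjusted p = 0.0126), and Gstm1 (1.28, adjusted p = 8.03e-06) rose against tcESCs. The other 10 were not called, while 29.4% of all genes were. The call of Slc7a11 was lost without tcESC replicate 2 or tod-PGCLC replicate 2. Against tcESCs, Slc7a11 (-2.31, adjusted p = 0.0182) and Srxn1, the sulfiredoxin gene (-1.96, adjusted p = 8.56e-05), were among those that fell in SCLCs. Slc7a11 had at most 0.309 CPM in the SCLC libraries, its call was lost without tcESC replicate 1, and its value was -1.50 and -4.42 without SCLC replicates 1 and 2.

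The receptor complex and its bHLH-PAS relatives contributed 11 of 13 genes. Hsp90aa1, the inducible HSP90 of the cytoplasmic complex, was at 4918 and 5245 CPM in tcESCs, 3565 and 3612 CPM in tc;Sf1ESCs, 1023 and 1158 CPM in SCLCs, and 2879 and 3104 CPM in tod-PGCLCs. It fell in SCLCs against tc;Sf1ESCs (-1.67, adjusted p = 3.02e-06). In that comparison 2 genes of the list rose and 2 fell, where 24.1% of all genes were called higher and 18.1% lower. Those that rose were Epas1, the hypoxia factor HIF2A that also pairs with ARNT (2.22, adjusted p = 1.91e-06; 594 and 720 CPM in SCLCs), and Npas2, a partner of the clock factor BMAL1 (1.93, adjusted p = 0.00288, and 1.32 without SCLC replicate 2). Between the ESC groups, where 11.7% of all genes were called, Arnt2 was the 1 gene called (-1.31, adjusted p = 0.0193). This close relative of Arnt lost its call when any 1 of the 4 libraries was left out. In tod-PGCLCs Epas1 was the 1 gene called against tcESCs (-1.03, adjusted p = 9.63e-05), at 63.5 and 77.9 CPM, where 29.4% of all genes were called. Epas1 was within 2-fold without tod-PGCLC replicate 2 (-0.89) and with library totals in place of TMM (-0.96). Against tod-PGCLCs, SCLCs had more Epas1 (3.35), Npas2 (1.99, adjusted p = 0.00467, and 1.39 to 2.87 with 1 library left out) and Arntl, which encodes BMAL1 (1.51, adjusted p = 5.47e-07).

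**Figure D3:**
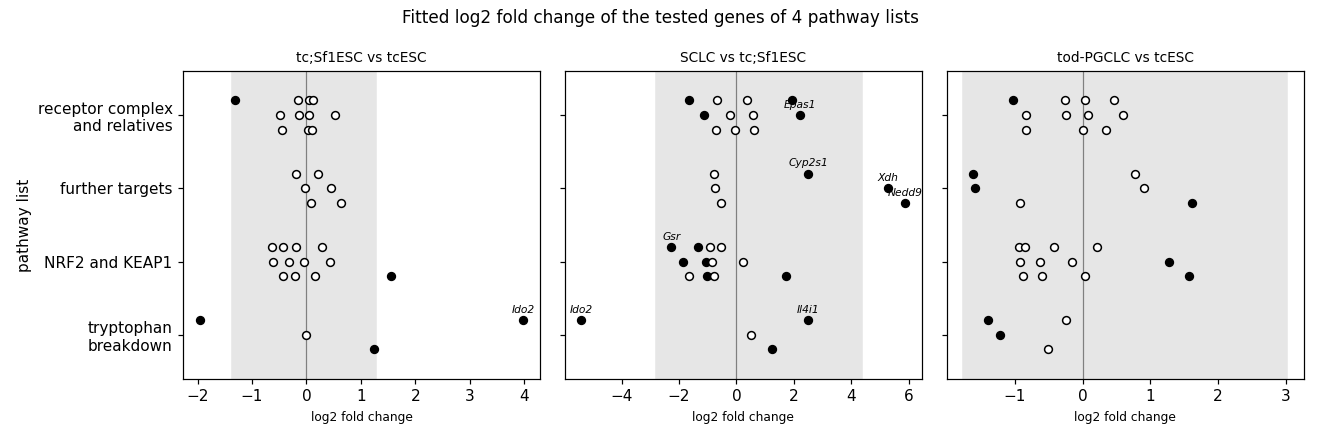
Horizontal axis, fitted log2 fold change of the tested genes of the 4 pathway lists in 3 comparisons; filled points were called, the height within a list has no meaning, and the grey band spans the 5th to 95th percentile of all genes tested. Ido2 is the farthest point of the list genes to the right between the ESC groups and to the left between SCLCs and tc;Sf1ESCs, where Nedd9 and Xdh are the farthest to the right.

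The genes most like Cyp1a1 in pattern, by Pearson correlation of log2 CPM (prior count 2) over the 8 libraries among 14291 genes, were Fgfr1 (r = 0.9963), Tyw3 (0.9953), Sf3b4 (0.9952), Mast4 (0.9947) and Cd2bp2 (0.9945). Fgfr1, a receptor for fibroblast growth factors, went from 197.6 and 194.9 CPM in tc;Sf1ESCs to 60.37 and 64.9 CPM in SCLCs. The genes most like Ahr were Ict1os (0.9929), Pcmt1 (0.9921), Tedc1 (0.9911), Mtfp1 (0.9885) and Ankrd13b (0.9873). Ict1os, Mtfp1 and Ankrd13b lie on chromosome 11, whose tested genes had a median log2 fold change of 0.52 in tod-PGCLCs against tcESCs. Fgfr1 lies on chromosome 8, whose median was 0.47 in tc;Sf1ESCs against tcESCs. The part of these shifts in the correlations was not tested. Among members, the correlation with Cyp1a1 was 0.97 for Nqo1, 0.949 for Ahrr, 0.661 for Tiparp, 0.51 for Aldh3a1, 0.404 for Ahr, 0.089 for Cyp1b1 and -0.72 for Arnt. With Ahr it was 0.848 for Aldh3a1, 0.783 for Cyp1b1, 0.377 for Nqo1, 0.329 for Ahrr, -0.319 for Tiparp and -0.465 for Arnt. These values describe 8 libraries in 4 groups that share their group differences, and with a prior count of 0.25 only 2 of the 5 genes named for Cyp1a1 were again among its nearest 5.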

How the data were processed

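Strand-specific poly-A libraries of 4 groups of 2 were sequenced as 50 bp pairs. The authors trimmed the reads with Trim Galore, aligned them to GRCm38 with STAR 2.4.0 and deposited for each library the raw counts of reads per Ensembl gene ID. HTSeq, Picard and DESeq2 are also named in the submitters' processing notes, and the annotation and strand setting of the counting are not given in the sources used here. Of the 46078 gene IDs, 45143 were named with GENCODE M21. The 5 rows not on a gene held 35.6% to 41.6% of all reads (20.5% to 27.5% not unique) and were left out, so genes with near-identical copies can be undercounted.

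The counts were tested with edgeR 4.0.16 in R 4.3.3 (TMM, quasi-likelihood test, Benjamini-Hochberg adjustment), and calls used the limits of the study, a fold change above 2 with an adjusted p below 0.05. One fit held the 6 ESC and SCLC libraries (16481 genes, mean count over 10) and another held all 8 (16707 genes), used for tod-PGCLCs. Ratios of few counts have exact intervals. The tests were checked on simulated data. The members and the gene lists were chosen with earlier results of these data known. Besides the 9 members, the text names up to 3 called genes with the largest absolute log2 fold change per list and comparison, and the 5 genes most like Ahr and Cyp1a1. Each group has 2 replicates, and p-values measure the spread between replicates alone. The groups of a fit share an estimate of this spread, so a p-value also draws on replicates of groups outside its comparison. SCLC replicates differed most, so p-values and SEs can be too small for SCLCs and too large between the ESC groups. With only the 4 libraries compared, 2205 of 15746 genes were called between the ESC groups, against 1922 of 16481. Alternatives tried were RLE size factors, totals without TMM, 2 other filters, only the libraries compared, all 8 libraries, DESeq2 1.42.0, a test against a 2-fold change, a replicate block and each library left out.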

Additional observations from a re-analysis of the deposited data

How the results depend on the processing

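The number of members called stayed within 1.5 times its value under every alternative run. Fold changes of members kept their direction and their side of the limits in 337 cases under settings with all libraries, where 6 lost the call and 1 changed sign. With 1 library left out 152 did, 5 lost the call, 1 gained it and 2 changed sign. A fit with a library left out kept 1 library in that group, which then had no spread of its own. With totals scaled by TMM, 32 group levels of members moved by less than 1 SD and 4 by more (Arnt in SCLCs, Ahrr in tod-PGCLCs and Nqo1 in tc;Sf1ESCs and SCLCs). The sign changes were all at values near 0: Arnt between SCLCs and tod-PGCLCs with library totals only (-0.0088), Arnt between tod-PGCLCs and tcESCs (-0.0196 to 0.12 with 1 library left out) and Aldh3a1 between the ESC groups (-0.14 to 0.0176 with 1 library left out). In a test against a 2-fold change, which is stricter by construction, Cyp1b1 was not called between the ESC groups, in SCLCs against tc;Sf1ESCs or in SCLCs against tod-PGCLCs, nor were Ahr and Aldh3a1 in tod-PGCLCs against tcESCs, and DESeq2 did not call the last of these either. Of the other pathway genes, 5 were called between the ESC groups, but 2 in that test and 2 to 3 with a library left out. For tod-PGCLCs against tcESCs the 8 became 3 in that test and 4 to 9 with a library left out, with 4 only without tod-PGCLC replicate 2. For SCLCs against tod-PGCLCs the 19 became 12 in that test. Over all genes, the 1922 calls between the ESC groups became 594 in that test and 1119 to 1240 with a library left out, and the 4906 for tod-PGCLCs became 3078 in that test. Replicate numbers did not pair the libraries, with correlations of same-numbered deviations between -0.03 and 0.06. A replicate block left 3, 6, 4, 6 and 5 members called, with 1918, 6958, 7023, 4893 and 6313 genes in all, in the order of the report, and Ido1 was then not called between the ESC groups (adjusted p = 0.0601 by edgeR), while no other call of a member or named gene changed with it. At 1 to 6 counts a library in SCLCs, depth limits the values of Cyp1a1 and Aldh3a1 there, and Cyp1a2 was not detected.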
